A study of Mus musculus with 8 samples.

Results

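The genes of the red cell lineage described here were Slc4a1, Epb42, Rhd, Ermap, Alas2, Klf1, Gata1 and Hemgn. All probe sets whose only annotated gene symbol was one of these 8 were taken, which gave 11 of the 45037 probe sets on the array and 8 of the 18161 genes measured. They were followed on 8 Affymetrix expression arrays of mouse RNA. Wild-type spleen, Aire-knockout spleen, wild-type lymph node and Aire-knockout lymph node were each represented by 2 arrays, marked A and B in the labels. Aire is the transcription regulator that drives expression of tissue-restricted self-antigens in the thymus, and the title of the series places the study among Aire-expressing cells outside the thymus. The labels give tissue, genotype and letter, and no strain, allele design, age, sex, cell type or sorting step. Nothing in them says what A and B stand for, so every p-value reflects the spread among these arrays alone.

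Red cells arise from progenitors that pass through a series of erythroblast stages, lose the nucleus and circulate first as reticulocytes, which still hold RNA. Gata1 and Klf1 are the transcription factors that switch on much of this programme, including genes for heme synthesis and for the proteins of the red cell membrane. In the mouse the spleen is a site of red cell production as well as of red cell removal, whereas lymph nodes are not a usual site of erythropoiesis.

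Values are MAS5 signals after scaling to a common array median, with a floor at the 20th percentile, a signal of 9.58, applied before log2. Each gene was represented by its probe set of highest mean signal. The 11568 genes with a signal above the pooled median of 59.0 on at least 2 arrays were tested together with limma, and 7 of the 8 erythroid genes were among them. Epb42 exceeded that signal on 1 array only, so its values below come from the same fit without that filter. Signals of different genes come from different probes and are not compared with each other.

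Several properties of the arrays bear on every value below. Aire signal was 5037 and 5204 in wild-type spleen against 1009 and 2376 in knockout spleen, and 3052 and 3535 in wild-type lymph node against 791 and 1137 in knockout lymph node, so it was lower on the knockout arrays in both tissues. The labels do not say whether the knockout removes the sequence that its probe set reads. Knockout spleen A stood apart, with a correlation across genes of 0.849 to 0.856 with the other spleen arrays against 0.888 to 0.910 among those, and of 0.865 to 0.922 with the lymph node arrays. Summed signal of the dendritic cell markers lay between 40843 and 59723 on all 8 arrays. The B cell markers summed to 394 to 1966, and the T cell markers to 513 to 2168. Each sum follows its brightest genes, such as Ccr7 and Fscn1 on the dendritic cell list, where Itgax read only 77.2 to 282. These lists use different probes, so their sums are not compared with each other. The female-specific transcript Xist and the Y-linked Eif2s3y differed between A and B of every group, so the RNA of A and B did not come from animals of the same sex makeup. In spleen Xist read 7624 and 4585 on wild-type A and B and 5527 and 14.6 on knockout A and B, and in lymph node 7090, 3565, 6355 and 23.1 in that order. Eif2s3y read 21.2, 1749, 1116 and 1968 in spleen and 3.80, 1692, 521 and 1988 in lymph node. Spleen and lymph node arrays of the same genotype and letter thus had similar Xist and Eif2s3y signals. Between genotypes, Eif2s3y was far lower on the wild-type A arrays than on the knockout A arrays. Xist was far lower on the knockout B arrays than on the wild-type B arrays. Knockout and wild-type were therefore not matched for sex makeup.

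Several of these genes are textbook targets of Gata1 and Klf1, and promoter sequences are shown as a description. Whether these motifs bear on the signals of the arrays was not tested. RefSeq promoter windows of the GRCm38.p6 build were matched by gene for 7 of the 8 genes. The 250 bases before the annotated start were searched on both strands for the GATA motif, meaning the letters GATA with A or T before them and A or G after them, which is the site type bound by Gata1, and for CACCC, the core of the site type bound by Klf1. A GATA motif was present in 6 of the 7 windows, against 26.5% of 32851 windows of the same length over the genome. CACCC was present in 5 of the 7, against 52.0%. Rhd, Ermap, Alas2 and Klf1 held both, against 11.8% of all windows. Because each motif is short, a match is a description of the letters and not a binding site. The last 120 bases before the start are given for those 4 genes, and for Hemgn, whose GATA motif lies closest to the start, with motif matches in capitals on the strand of the gene. TTATCA and TTATCT are GATA motifs on the other strand, and GGGTG is CACCC on the other strand.
Rhd, chr4:134864416-134864535, plus strand: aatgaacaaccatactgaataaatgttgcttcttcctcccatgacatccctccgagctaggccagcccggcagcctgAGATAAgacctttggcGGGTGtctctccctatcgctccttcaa
Ermap, chr4:119189996-119190115, minus strand: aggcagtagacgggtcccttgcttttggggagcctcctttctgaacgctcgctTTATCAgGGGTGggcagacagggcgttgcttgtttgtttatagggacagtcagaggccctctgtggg
Alas2, chrX:150547297-150547416, plus strand: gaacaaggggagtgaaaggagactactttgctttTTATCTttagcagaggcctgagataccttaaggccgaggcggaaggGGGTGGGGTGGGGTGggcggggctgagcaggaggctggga
Klf1, chr8:84901862-84901981, plus strand: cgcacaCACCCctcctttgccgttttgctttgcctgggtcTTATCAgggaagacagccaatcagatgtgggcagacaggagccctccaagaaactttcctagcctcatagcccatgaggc
Hemgn, chr4:46404184-46404303, minus strand: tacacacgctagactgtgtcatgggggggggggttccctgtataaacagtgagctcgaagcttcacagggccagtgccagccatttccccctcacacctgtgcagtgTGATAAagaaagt

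In Rhd the GATA motif began 43 bases before the start and the CACCC match 27 bases before it. Ermap had the pair side by side, at 67 and 60 bases before the start. Alas2 carried 3 CACCC matches in a row, the first at 40 bases, downstream of its GATA motif at 86 bases. In Klf1 the order was the opposite, with CACCC at 114 and GATA at 80 bases before the start. Hemgn had its GATA motif at 13 bases and no CACCC match in the window. Epb42 had a GATA motif only, at 226 bases, and Gata1 had CACCC only, at 74 and 52 bases.

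Among these 8 genes 1 pattern recurred on the arrays. Signals were high on wild-type spleen A, knockout spleen A and knockout spleen B, low on all 4 lymph node arrays, and low again on wild-type spleen B. The plot of signals by array shows each gene. Gata1 departed from this pattern, since its signal on knockout spleen B was the lowest of all its arrays. For Epb42 and Ermap the lowest of the high spleen arrays exceeded lymph node only narrowly.

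**Figure D1:**
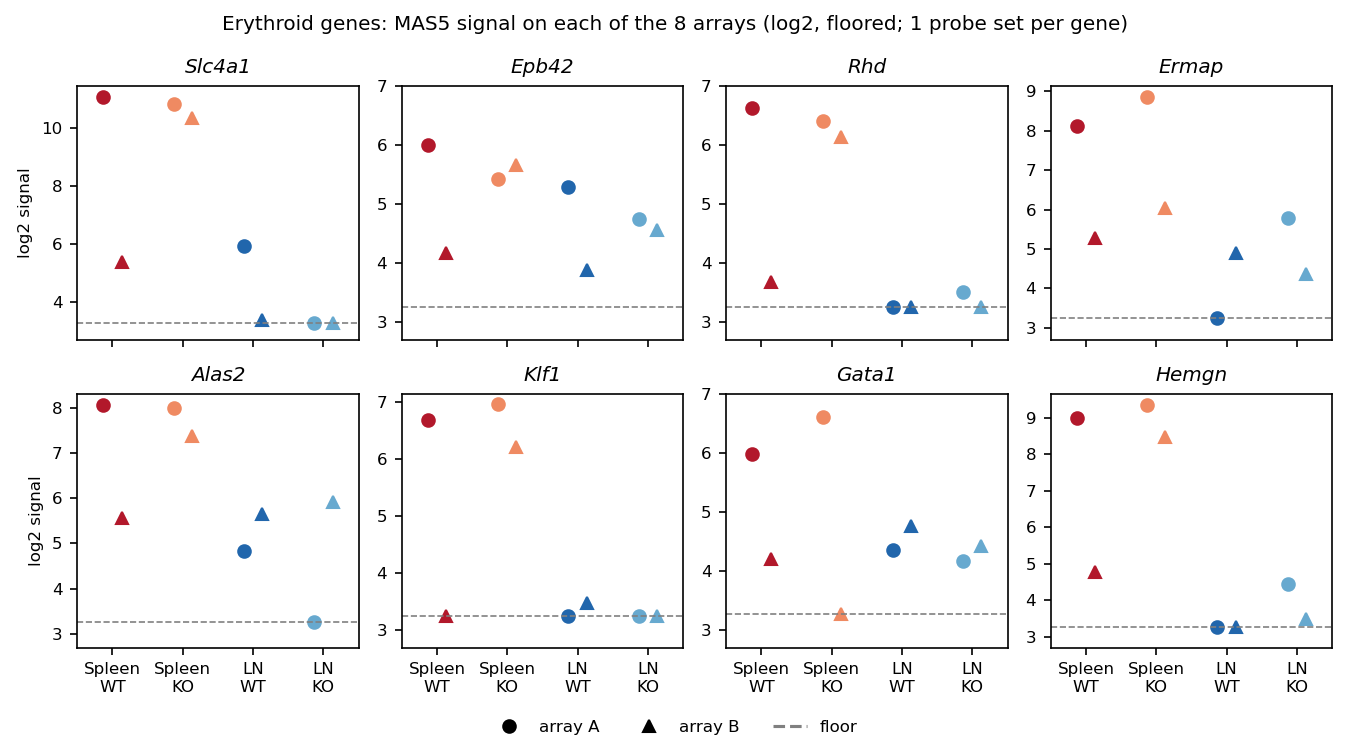
MAS5 signal of each erythroid gene on each array, as log2 of the median-scaled signal with the floor of 9.58 as a dashed line, by tissue (LN, lymph node) and genotype (WT, wild-type; KO, Aire knockout). Circles are A arrays and triangles B arrays; wild-type spleen B is the lowest spleen array in 7 of the 8 genes, Gata1 being the exception.

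The membrane genes come first. Slc4a1 encodes band 3, the anion exchanger that is the main integral protein of the red cell membrane. Its signal was 2159 on wild-type spleen A and 41.6 on wild-type spleen B, and 1852 and 1307 on knockout spleen A and B. In lymph node it was 61.4 and 10.5 on the wild-type arrays and 9.63 and 9.69 on the knockout arrays. The 3 high spleen arrays lay well apart from every lymph node array, and wild-type spleen B fell inside the lymph node range. On the log2 scale the mean was 8.23 ± 4.03 (SD, n = 2) in wild-type spleen and 10.60 ± 0.36 (SD, n = 2) in knockout spleen. A second Slc4a1 probe set gave 1837, 21.9, 948 and 1104 on the spleen arrays in the order wild-type A, wild-type B, knockout A and knockout B, and 12.2 to 37.4 in lymph node. The third was much dimmer, at 48.3, 7.27, 56.2 and 58.2 in spleen and 13.6 to 26.5 in lymph node. All 3 probe sets therefore put wild-type spleen B lowest of the spleen arrays.

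Epb42 encodes protein 4.2, which ties band 3 to the membrane skeleton. Its brighter probe set read 64.0 and 17.9 in wild-type spleen, 42.7 and 50.4 in knockout spleen, 39.1 and 14.7 in wild-type lymph node, and 26.7 and 23.7 in knockout lymph node. The same 3 spleen arrays were above all lymph node arrays, but by a small margin, 42.7 against 39.1. The second probe set did not exceed 24.2 on any array.

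Rhd carries the Rh blood group antigen. It read 98.6 and 12.8 in wild-type spleen, 84.8 and 70.2 in knockout spleen, and 5.29 to 11.4 on the lymph node arrays, 3 of which were below the floor. Rhd was one of the genes in which even wild-type spleen B, at 12.8, exceeded the highest lymph node array, at 11.4, although by little. Ermap encodes an erythroblast membrane protein of the immunoglobulin superfamily that carries the Scianna blood group. It read 279 and 39.2 in wild-type spleen, 464 and 66.1 in knockout spleen, 7.89 and 29.8 in wild-type lymph node and 55.6 and 20.5 in knockout lymph node. Here both B arrays of spleen were low, and knockout spleen B exceeded the highest lymph node array, knockout A, only narrowly.

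Alas2 encodes the erythroid form of aminolevulinate synthase, the enzyme of the first step of heme synthesis. It read 267 and 47.2 in wild-type spleen, 253 and 165 in knockout spleen, 28.4 and 49.8 in wild-type lymph node, and 7.37 and 59.9 in knockout lymph node. The 3 high spleen arrays again exceeded all lymph node arrays, and wild-type spleen B lay below both lymph node B arrays.

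Of the regulators, Klf1, the erythroid Krüppel-like factor that activates the adult beta-globin gene, read 103 and 4.61 in wild-type spleen, and 125 and 74.2 in knockout spleen. In lymph node it was below the floor on 3 arrays and 11.2 on wild-type B. Wild-type spleen B was below the floor too, so for Klf1 this spleen array could not be told from lymph node. Gata1, which also acts in megakaryocytes, mast cells and eosinophils, read 63.1 and 18.3 in wild-type spleen and 97.9 and 7.07 in knockout spleen. Its lymph node signals were 20.5, 27.0, 18.0 and 21.4. Only the A arrays of spleen exceeded lymph node for Gata1, and knockout spleen B was the lowest of all 8 arrays. Hemgn encodes hemogen, a nuclear protein of blood-forming cells. It read 514 and 27.5 in wild-type spleen, 654 and 356 in knockout spleen, 6.39 and 0.370 in wild-type lymph node and 21.9 and 11.2 in knockout lymph node. Every spleen array exceeded every lymph node array for Hemgn, with wild-type spleen B at 27.5 just above the highest lymph node array.

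Across the 8 genes, all 4 spleen arrays exceeded all 4 lymph node arrays in 2, Hemgn and Rhd, as they did in 2.92% of all 18161 genes measured. The 3 spleen arrays other than wild-type B exceeded all lymph node arrays in 7 of 8, against 4.31% of all genes measured. In 5 of 8, Slc4a1, Epb42, Ermap, Alas2 and Klf1, those 3 arrays exceeded all lymph node arrays while wild-type spleen B did not exceed the highest of them, a pattern found in 1.39% of all genes measured. The patterns that set wild-type B apart were chosen after the values had been seen. The labels do not say which cells the RNA came from, and fewer erythroid cells and less erythroid RNA per cell cannot be told apart here.

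The first comparison set spleen against lymph node, averaged over genotypes. In limma with Benjamini-Hochberg adjustment over all genes, none of the 7 erythroid genes tested passed an adjusted p of 0.05, and neither did any other gene (0% of 11568). Several of the 7 passed the low-signal filter through spleen arrays alone, so counts are given for all 8 genes from the fit without it. There 5 of the 8 were higher in spleen at an unadjusted p under 0.05, all but Ermap, Gata1 and Epb42, against 6.57% of all genes measured. Slc4a1 was higher in spleen by a log2 difference of 5.45 ± 1.21 (SE), or 43.6-fold, with a limma adjusted p of 0.238. For Hemgn the difference was 4.29 ± 0.86 (SE), or 19.5-fold, with a limma adjusted p of 0.211. In the fit without the filter the limma adjusted p was 0.337 for Slc4a1 and 0.308 for Hemgn, with SEs of 1.40 and 0.99. Slc4a1 and Hemgn had the largest differences among the 8 genes and the smallest adjusted p-values.

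Ermap, Klf1, Rhd and Alas2 formed a middle group with 5.04-fold to 5.67-fold higher mean log2 signal in spleen. Their log2 differences were 2.50 ± 0.89 (SE) for Ermap, 2.46 ± 0.70 for Klf1, 2.39 ± 0.60 for Rhd and 2.33 ± 0.75 for Alas2. Limma adjusted p-values were 0.284 to 0.403, and 0.359 to 0.502 in the fit without the filter. For Klf1 and Rhd the size depends on how signals near background are treated, and 3 of the 4 lymph node arrays lay below the floor for each. Klf1 came to 3.72 without the floor, and to 1.12 with the floor raised to 35.0, where Rhd came to 0.94. Gata1 and Epb42 had the smallest differences, 0.59 ± 0.75 (SE; 95% interval -1.20 to 2.38) and 0.69 ± 0.53 (SE; 95% interval -0.66 to 2.05). The median difference over the 8 genes was 2.43, against 0.04 over all genes measured.

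Wild-type spleen B weighed on all of these values. Without it the difference became 6.87 ± 0.64 (SE) for Slc4a1 and 5.34 ± 0.39 for Hemgn. For Klf1 it became 3.32 ± 0.31 and for Rhd 3.12 ± 0.27. Its removal left only wild-type spleen A in that group, so no p-values are given here. Ermap, Alas2 and Gata1 came to 3.21, 2.96 and 1.03 without wild-type spleen B. Without the filter and without that array, which was chosen for its low values, 6 of the 8 had an unadjusted p under 0.05, against 6.12% of all genes measured. Without knockout spleen A, the array that stood apart over all genes, Slc4a1 came to 5.32, Hemgn to 4.07, Rhd to 2.32, Klf1 to 2.28, Alas2 to 2.18, Ermap to 1.80 and Epb42 to 0.75, while Gata1 came to -0.25. Within a genotype, Slc4a1 differed between tissues by 3.56 among the wild-type arrays and 7.33 among the knockout arrays.

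**Figure D2:**
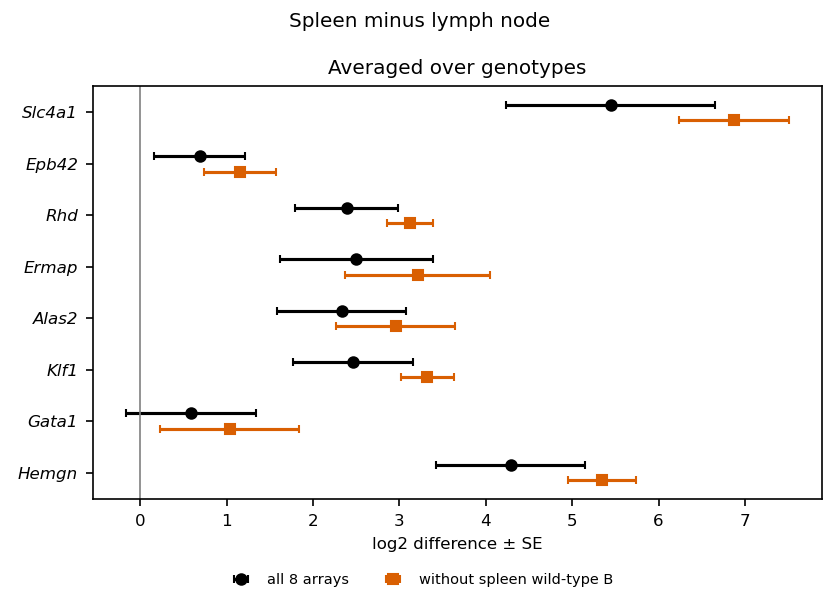
Spleen minus lymph node difference in mean log2 signal for each erythroid gene, with the standard error from limma as bars, over all 8 arrays (circles) and without wild-type spleen B (squares). Every point lies to the right of 0, and leaving out that array, chosen for its low values, moved each of the 8 genes further to the right, Slc4a1 from 5.45 to 6.87.

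The second comparison set knockout against wild-type, which were not matched for sex makeup, so its part in these differences cannot be told apart. In spleen none of the 7 genes tested passed in limma after adjustment (0% of all genes), and without the filter 0 of 8 reached an unadjusted p under 0.05, against 8.51% of all genes measured in either direction. The log2 differences, knockout minus wild-type, were 2.38 ± 1.71 (SE) for Slc4a1, 2.02 ± 1.22 for Hemgn, 1.61 ± 0.99 for Klf1 and 1.12 ± 0.85 for Rhd. They were 0.86 ± 1.06 for Alas2, 0.74 ± 1.26 for Ermap, 0.45 ± 0.75 for Epb42 and -0.15 ± 1.07 for Gata1. The intervals were wide: 95% limits ran from -1.68 to 6.43 for Slc4a1 and from -0.88 to 4.92 for Hemgn. Positive values in 7 of the 8 genes rested on the low wild-type spleen B. Without that array all 8 were negative, from -0.09 for Hemgn and -0.10 for Klf1 to -0.67 for Ermap and -1.04 for Gata1, with Slc4a1 at -0.47, Epb42 at -0.46, Alas2 at -0.39 and Rhd at -0.35. Ermap was also negative, at -0.66, without knockout spleen A. Gata1 was positive without wild-type spleen A, at 0.74, and without knockout spleen B, at 1.52. No direction in spleen can therefore be given for any of these genes that holds whichever array is left out.

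In lymph node 0 of the 7 genes passed (0% of all genes), and without the filter 0 of 8 reached an unadjusted p under 0.05, against 4.7% of all genes measured. The log2 differences were -1.40 ± 1.71 (SE) for Slc4a1, 0.997 ± 1.26 for Ermap, 0.71 ± 1.22 for Hemgn and -0.65 ± 1.06 for Alas2. Gata1, Rhd, Klf1 and Epb42 lay between -0.26 and 0.12. The 95% limits for Slc4a1 ran from -5.45 to 2.66 and for Hemgn from -2.19 to 3.61, so differences of several fold either way were not detectable with 2 arrays a group. Without knockout lymph node A, Alas2 came to 0.67. The test of whether the knockout difference itself differed between tissues passed for none of the 7 genes and for 0% of all genes in limma. The median of that difference was 1.15 over the 8 genes and -0.06 over all genes tested. Over the 7 erythroid genes tested it was 1.31, and -0.48 without wild-type spleen B.

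**Figure D3:**
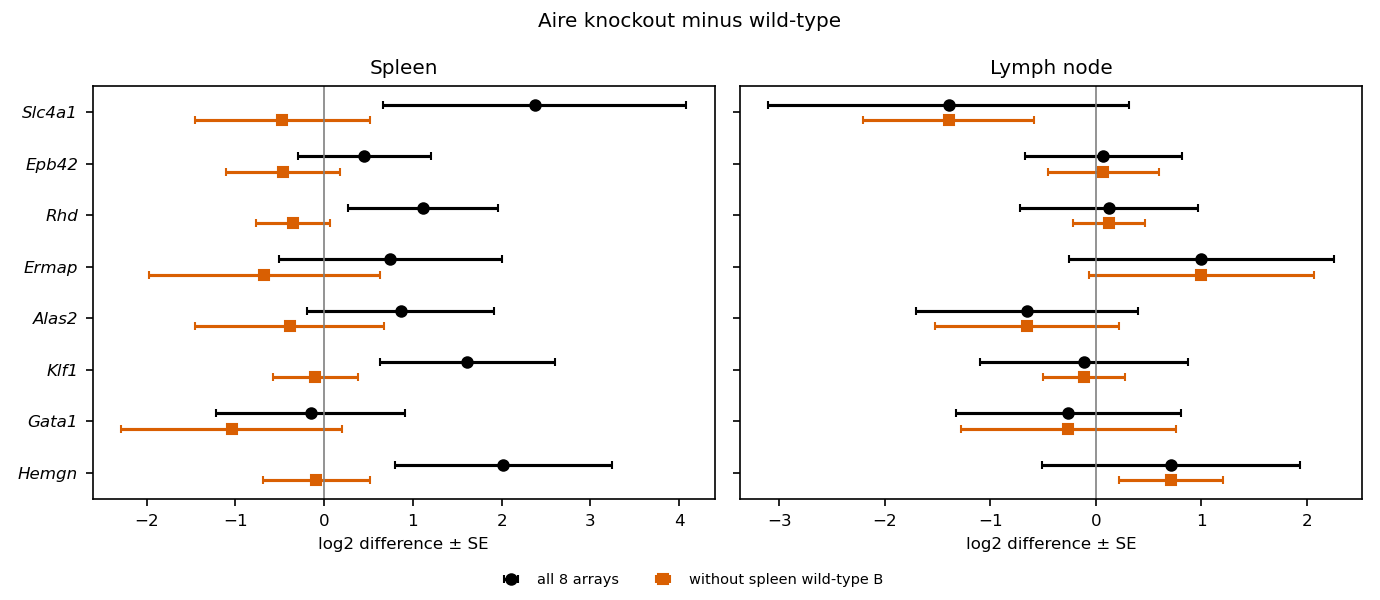
Aire knockout minus wild-type difference in mean log2 signal for each erythroid gene in spleen and in lymph node, with the standard error from limma as bars, over all 8 arrays (circles) and without wild-type spleen B (squares). In spleen 7 of the 8 circles lie right of 0 and all 8 squares lie left of it; in lymph node the points keep their place and only the bars change, because the spread is estimated over both tissues.

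Within the wild-type spleen group the ratio of array A to array B was 51.9 for Slc4a1, 18.7 for Hemgn, 7.70 for Rhd, 7.13 for Ermap and 5.66 for Alas2. For Klf1 it was at least 10.8, since array B lay at the floor. Epb42 and Gata1 had the smallest ratios, 3.57 and 3.44. So A was at least 4-fold above B in 6 of the 8 genes, against 2.65% of all genes measured. B was the lowest spleen array in 7 of 8, against 14.9%. Within knockout spleen the same ratio was at least 4-fold for Ermap, at 7.02, and for Gata1, at least 10.2 with B at the floor, against 5.47% of all genes measured. For the other 6 it lay between 0.848 for Epb42 and 1.83 for Hemgn. A 4-fold gap was thus common to most of the genes in wild-type spleen and limited to Ermap and Gata1 in knockout spleen, as the plot of A to B ratios shows. With 1 array on each side these ratios have no test.

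**Figure D4:**
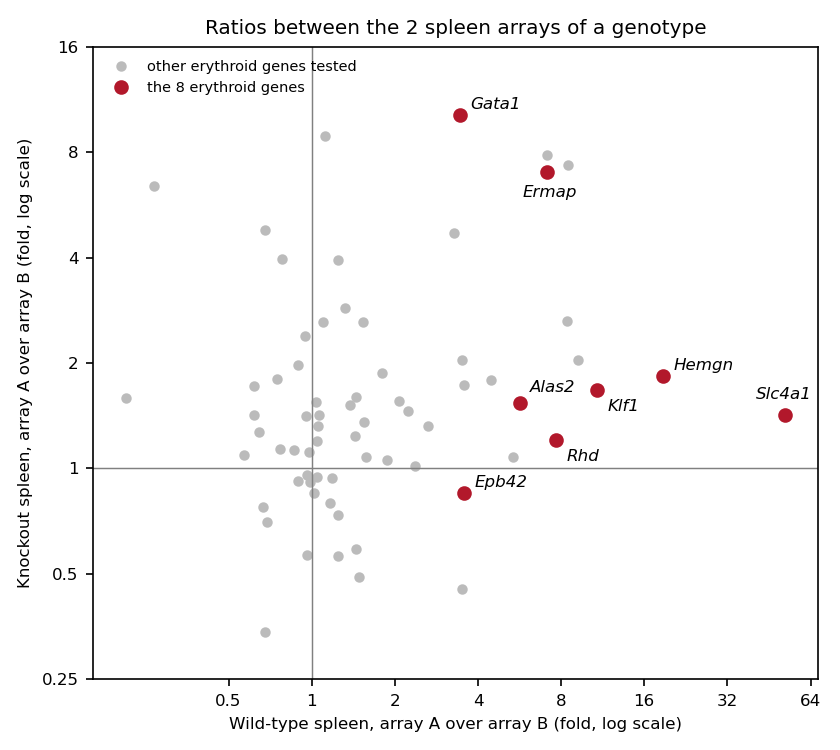
Ratio of array A to array B in wild-type spleen (horizontal) and in knockout spleen (vertical), both on log scales, for the 8 erythroid genes (red) and the other erythroid genes tested (grey). Slc4a1 lies furthest right at 51.9 with a knockout ratio of 1.42, while Gata1 and Ermap lie high, at 10.2 and 7.02.

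Most of the genes followed one another closely over the 8 arrays, on log2 signal, with Epb42 and Gata1 doing so least. As a description over points that include the low and the high arrays alike, the correlation of each gene with the mean of the other 7 was 0.98 for Klf1, 0.97 for Rhd, 0.96 for Hemgn and 0.94 for Slc4a1. Ermap and Alas2 followed at 0.85 and 0.83, Epb42 at 0.72 and Gata1 at 0.54. The mean standardised profile of the 8 genes was 1.25 on wild-type spleen A, 1.28 on knockout spleen A and 0.56 on knockout spleen B. It was -0.52 on wild-type spleen B and -0.68 to -0.59 on the lymph node arrays, so wild-type spleen B lay closer to lymph node than to the other spleen arrays.

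The gene whose signals were most like that mean profile was Btnl10, a butyrophilin-like gene, with a correlation of 0.98 over the 8 arrays. Btnl10 read 63.7, 7.08, 61.6 and 49.9 on the spleen arrays in the same order and 0.664 to 3.02 in lymph node. Bpgm, the enzyme that makes 2,3-bisphosphoglycerate in red cells, came next at 0.98. Bpgm read 1208 and 457 in wild-type spleen, 984 and 744 in knockout spleen and 371 to 454 in lymph node, so wild-type spleen B stood at 457 against a lymph node maximum of 454. Cnot3, Cse1l, Igkv14-111, Car1, Gm17227, Ccdc126, 2610001J05Rik and Chrnb2 completed the 10 most alike, at 0.94 to 0.92. Car1, carbonic anhydrase 1 of the red cell, read 192 and 27.0 in wild-type spleen, 214 and 27.2 in knockout spleen and 5.63 to 18.0 in lymph node, with both B arrays of spleen low as for Ermap.

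Other erythroid genes were taken from 6 lists of 87 genes, covering globins, heme synthesis, membrane, transcription regulators, erythropoietin signalling with iron uptake, and late maturation. Of these, 75 were measured and 60 tested. None was called in limma after adjustment, although Car2 was called with a trended and robust prior (adjusted p = 0.021). In the fit without the filter, 12 of the 75 were higher in spleen and 0 lower at an unadjusted p under 0.05, against 6.57% higher among all genes measured. Their median spleen minus lymph node difference was 0.31, against 0.04 for all genes measured and 2.43 for the 8 genes above. The 3 spleen arrays other than wild-type B exceeded all lymph node arrays in 18 of 75, against 4.31% of all genes measured. In 11 of 75 wild-type B also did not exceed the highest lymph node array, against 1.39%. Wild-type spleen A was at least 4-fold above B in 10 of 75, against 2.65%. The opposite gap was not counted, and was seen for Ppox, at 32.0 on A and 150 on B, and Ank1, at 12.9 and 58.4. For knockout against wild-type, 2 of 75 in spleen and 3 of 75 in lymph node reached an unadjusted p under 0.05, against 8.51% and 4.7% of all genes measured.

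Among the globins, the beta-globin gene Hbb-b2 behaved much like the 8 genes. It read 3868 and 419 in wild-type spleen, 3556 and 1737 in knockout spleen, and 19.5, 112, 79.5 and 261 in lymph node. All spleen arrays exceeded all lymph node arrays for Hbb-b2, with a log2 difference of 4.44 ± 0.89 (SE; limma adjusted p = 0.211). The probe set annotated to the alpha-globin gene Hba-a2 did not show this, at 4609 to 6543 in spleen and 3879 to 6380 in lymph node, a difference of 0.10 ± 0.25. Hba-a1 reached at most 19.4 on any array, Hba-x 4.88, Hbb-bh1 51.5 and Hbb-y 32.6, and none of these was tested. Probe sets with several gene symbols were not used, and Hbb-b1, Hbb-bs and Hbb-bt had none with a single symbol. Globin copies are near-identical, so probe sets can pick up more than the gene they are named for. The Hba-a2 signal therefore cannot be read as alpha-globin RNA alone.

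For heme synthesis 8 of 12 measured genes had a positive difference, with a median of 0.48. The genes of highest mean signal on this list were Flvcr1, a heme exporter, at -0.09, the mitochondrial iron importer Slc25a37 at -0.23, uroporphyrinogen decarboxylase Urod at 0.99 and ferrochelatase Fech at 0.85. The membrane list had 11 of 17 positive and a median of 0.24, with Add1 at 0.04, Gypc at 0.59, Tmod1 at 0.29 and Slc14a1 at -0.78. The transcription regulators had 11 of 14 positive and a median of 0.54, with Cbfa2t3 at 0.29, Zbtb7a at 0.55, Nfe2l1 at 0.12 and Myb at -0.05. Erythropoietin signalling and iron uptake had 10 of 13 positive and a median of 0.19, with Pim1 at -0.01, Socs2 at 0.31, Stat5a at 0.14 and Jak2 at -0.52. Late maturation had 10 of 13 positive and a median of 0.34, with Tspan33 at 0.23, Cd24a at 0.08, Cat at -0.26 and Prdx2 at 0.19. The brightest genes of these lists, many of which other blood cells also express, thus had differences far smaller than those of Slc4a1 and Hemgn.

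Beyond the genes picked for brightness, a few list members, chosen after their values had been seen, showed a profile like that of most of the 8 genes. Car2, a carbonic anhydrase, read 1336, 563, 1285 and 1266 in spleen and 149 to 366 in lymph node, the smallest unadjusted p of the lists at 0.000574 (limma adjusted p = 0.177). Alad, the second enzyme of heme synthesis, read 203, 57.2, 349 and 201 in spleen and 28.7 to 83.6 in lymph node. Tfr2, a transferrin receptor of erythroid cells and liver, read 135, 16.01, 133 and 18.1 in spleen and 3.68 to 17.8 in lymph node. Tal1, a partner of Gata1 in erythroid transcription complexes, read 80.3, 1.60, 113 and 42.9 in spleen and 9.83 to 29.9 in lymph node. In all of these wild-type spleen B was the lowest spleen array, though for Car2 it exceeded every lymph node array. Tfr2 shared the low knockout spleen B of Ermap, Gata1 and Car1.

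**Figure D5:**
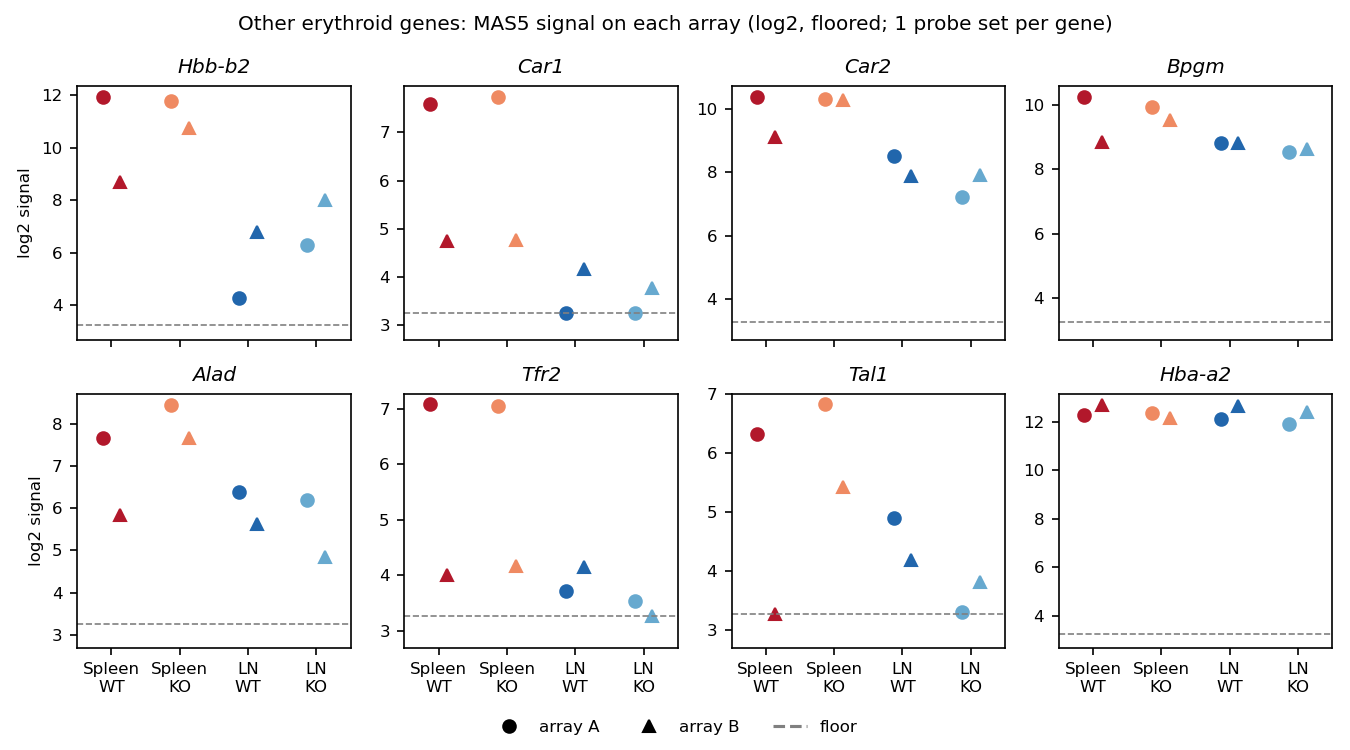
MAS5 signal of 8 other erythroid genes on each array, as log2 of the median-scaled signal with the floor of 9.58 as a dashed line; circles are A arrays and triangles B arrays, WT wild-type, KO Aire knockout, LN lymph node. For Hbb-b2, Car2, Alad and Tal1 wild-type spleen B is the lowest spleen array, though for Hbb-b2 and Car2 it stays above every lymph node array. Car1 and Tfr2 are low on both B arrays of spleen, and the probe set annotated to Hba-a2 is flat.

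Markers of other cell types were summed on each array. A sum follows its brightest genes, and the sums of the other erythroid lists also differed little between wild-type spleen A and B, at 8946 and 7026 for the globins, 5129 and 4128 for heme synthesis and 12339 and 12200 for the transcription regulators. Summed signal on wild-type spleen A and B was 240 and 191 for platelets and megakaryocytes, 6554 and 5687 for red pulp macrophages, 464 and 472 for neutrophils, and 646 and 379 for mast cells, basophils and eosinophils. It was 3685 and 4511 for stem and progenitor cells, 952 and 864 for B cells, 902 and 513 for T cells, 48091 and 52360 for dendritic cells and 10247 and 6906 for the cell cycle. Single markers were at least 4-fold higher on A than on B, namely Hpgd, C1qa and C1qb among 15 macrophage genes and Ccnb2, Mcm5 and Rrm2 among 17 cell cycle genes. So were Gp9, Pax5, Cd4 and Siglech on the platelet, B cell, T cell and dendritic cell lists. The opposite gap was not counted. It was seen for Blk, at 67.3 on A and 332 on B, and Hoxa9, at 77.3 and 348. Nusap1, Aurka and Mmp8, below the floor on A, showed it too. On knockout spleen A, the neutrophil sum was 9652 against 81.8 to 472 on the other 7 arrays, the red pulp macrophage sum 23880 against 4168 to 17056, and the cell cycle sum 24098 against 6906 to 14287. The platelet and megakaryocyte sum was also highest there, at 2750 against 191 to 1120. For each of the 8 genes knockout spleen A and wild-type spleen A differed at most 1.66-fold, the ratio for Ermap. The part of these other cells in the erythroid signals was not tested.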

How the data were processed

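RNA of 8 samples was measured on Affymetrix arrays, 1 array a sample. The authors deposited intensity values, 1 linear signal per probe set, made with MAS5 per the submitters' processing notes; the sources used here name no version and no detection calls. The 2% trimmed mean was 250.0 on every array. Array medians still ranged over 0.28 on the log2 scale, so each array was scaled to a common median. Of 45101 probe sets 64 controls were left out, and 34945 carried 1 gene symbol, 932 several and 9160 none. Groups came from the sample titles. Log2 values, computed from the deposited intensities, were fitted with limma 3.58.1 in R 4.3.3 (4 group means, 4 residual degrees of freedom) and tested on simulated data. Named genes were the 8 erythroid genes, Aire, all globins, up to 4 genes of highest mean signal per list and the 10 genes most like the mean profile; others are named as chosen after their values were seen. Members and lists were chosen with earlier results of these data known. The number of arrays limits precision. Alternatives covered scaling, floor, filter, probe sets, variance model, replicate block and leaving out each array. No sequence window was used for Slc4a1.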

Additional observations from a re-analysis of the deposited data

How the results depend on the processing

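Differences between spleen and lymph node kept their direction in 168 of 169 values under the alternatives. The settings of filter, variance model, replicate block and all probe sets cannot change a difference, so this count overstates how stable the differences are. None of the 8 genes passed the threshold in any comparison. Their smallest limma adjusted p was 0.0572, for Hemgn with a trended and robust prior, where 44 genes were called between tissues, Car2 of the other erythroid lists among them. That count was 0 as reported, 3 with the floor at the 40th percentile, and 1 with quantile normalization, without median scaling, without the filter, with probe sets averaged and in wild-type arrays only. Leaving out 1 array gave 0 to 3, with 3 without knockout spleen A. The knockout count in spleen was 2 over all probe sets and 1 without the floor or with the trended prior, and in lymph node 3 over all probe sets. The labels state no pairing. Deviations of arrays sharing a letter correlated at 0.06 to 0.31, while spleen and lymph node arrays of the same genotype and letter had similar Xist and Eif2s3y signals. With the letter as a replicate block the counts stayed at 0, with a smallest adjusted p of 0.188 for Hemgn, and at 0.175 with genotype and letter as the block.

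Gata1 between tissues ranged from -0.25 to 1.43 when 1 array was left out. Many alternatives could not move the knockout differences within a tissue. These were the settings named above, fitting that tissue alone and leaving out an array of the other tissue. Without wild-type spleen B every gene was negative in spleen. Knockout minus wild-type in spleen kept its direction in 141 of 153 values. Leaving out 1 array it ranged from -0.47 to 5.22 for Slc4a1, -0.46 to 1.37 for Epb42, -0.35 to 2.59 for Rhd, -0.67 to 2.16 for Ermap, -0.39 to 2.11 for Alas2, -0.10 to 3.33 for Klf1, -1.83 to 1.52 for Gata1 and -0.090 to 4.13 for Hemgn. With the floor at the 40th percentile Epb42 came to -0.028 and Gata1 to 0.32. In lymph node the direction held in 146 of 153 values. Epb42 ranged from -0.64 to 0.78 and Alas2 from -1.97 to 0.67, and at the higher floor they came to -0.080 and 0.13. Rhd came to -0.082 without the floor and -0.014 with it added. For the knockout difference between tissues the direction held in 130 of 145 values. It ranged from -0.53 to 1.30 for Epb42, -0.48 to 2.47 for Rhd, -1.67 to 1.16 for Ermap, -1.57 to 1.79 for Gata1 and -0.80 to 3.42 for Hemgn. Ermap came to 0.41 at the higher floor, and without a floor Gata1 came to -0.11 and Hemgn to -0.61. Why these values moved was not tested, other than that 2 arrays a group leave each value resting on single arrays.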
